A study of Mus musculus with 6 samples.

Results

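The 10 genes described here encode secreted cytokines and chemokines, taken by name from the 53618 named rows of 1 RNA-seq table of mouse leukemia cells. They are the cytokines Il10, Il4, Il13 and Il6, the growth factor Csf1, the CC chemokines Ccl3, Ccl4, Ccl5 and Ccl9, and the CXC chemokine Cxcl10. All 10 had a row. Il4 and Il13 were read at clear levels in all 6 libraries. Csf1, Il10, Il6, Ccl5, Ccl9 and Cxcl10 had mean values of at most 5.84 normalized counts under the oil label, and Ccl3 and Ccl4 had 0 reads in every library. Of the 10 genes, 3 were abundant enough to be tested across all genes with limma, and 0 were called at an adjusted p of 0.05, as were 0% of all 12298 genes tested. The groups did not overlap for Csf1 and Il10, higher under the tamoxifen label, and Il4, lower, where 7.86% of tested genes were higher and 9.69% lower without overlap, and 8.76% were higher among genes of low values below the filter. Cxcl10 had too few reads to order all libraries.

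The cells were GFP+Lin-c-Kit+ splenocytes from mice carrying Usp18+/f leukemia driven by AE9a, a truncated AML1-ETO fusion. Every library, controls included, came from cells with the AE9a retrovirus, the GFP marker, 1 floxed Usp18 allele and a tamoxifen-inducible Cre that is not restricted to one tissue. Sick recipients were given oil (Usp18+/f, 3 mice) or tamoxifen (labelled Usp18+/Δ, 3 mice), by the study's methods in 3 injections. Cells were sorted 3 days after the first injection, 1 library per mouse. The hosts were young adult wild-type C57BL/6 mice of both sexes that received the leukemia as a secondary transplant after sub-lethal irradiation, and blood cells of the host can persist in such mice. The comparison asks how the loss of 1 Usp18 allele, a negative regulator of interferon signaling, changes transcripts of leukemia cells. Tamoxifen itself and the loss of the allele cannot be told apart in this design, because the control mice received oil.

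Cytokines are small secreted proteins that cells use to instruct each other through surface receptors, and chemokines are those that attract migrating cells. IL-4 and IL-13 are neighbouring genes known as products of T helper cells, mast cells and basophils, IL-10 dampens inflammation, IL-6 drives acute inflammation, and CSF1 keeps macrophages alive. CCL3, CCL4, CCL5 and CCL9 recruit monocytes, lymphocytes and granulocytes, and CXCL10 is a classic interferon-induced attractant of activated T and NK cells. Bulk RNA cannot tell fewer cells of a type from less RNA per cell.

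Values are normalized counts, the reads of a gene scaled by each library's size factor. Libraries are named by label and replicate number as oil 1 to 3 and tamoxifen 1 to 3. Recovered whole reads numbered between 19172471 and 23785143 per library. Usp18 counts went against the labels. They were 217, 214 and 176 normalized counts in oil 1 to 3 and 477, 329 and 284 in tamoxifen 1 to 3. The gene to be depleted was thus higher under the tamoxifen label, and every direction below is one between labels. In limma its log2 fold change was 0.81 with an adjusted p of 0.666, and 0.60 without tamoxifen 1. A count over the whole gene does not show the deleted part. By qRT-PCR and western blot, the study reported a stronger interferon response in cells labelled Usp18+/Δ. The library labelled tamoxifen 1 stood apart, with a median correlation across genes of 0.913 with the others against 0.981 to 0.990 for each other library. It also held 0.00923% mitochondrial reads against 1.01% to 1.56%. Of the 6 markers for the sorted leukemia cells, 4 passed the filter described below. Kit was at 4687 to 10976 normalized counts, the stem and progenitor marker Cd34 at 201 to 1052, and the transcription factors Runx1 and Spi1 at 9996 to 12791 and 1523 to 3428. The myeloid enzyme Mpo was at 0 to 20.2 and the leukocyte surface gene Ptprc at 0.898 to 8.08. Among mast cell and basophil markers, Il1rl1, the IL-33 receptor, was at 16744 to 40979 and the protease gene Cpa3 at 3823 to 9431.

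The promoters of 4 members are shown because they belong to the genes on which the results turn: Il4 and Il13, the members read at clear levels, Csf1, which was higher in every library labelled tamoxifen, and Cxcl10, the member known as an interferon-induced gene. Each runs from 250 bases before to 50 bases after the start site, 5′ to 3′ on the gene's strand, from RefSeq on GRCm38.p6, which holds promoters for 7 of the 10 members (Il10, Ccl4 and Ccl5 were not matched). Capitals mark matches on either strand to the core of the interferon-stimulated response element (a pair of GAAA runs with 2 bases of any kind between them), the NF-κB consensus or the GATA-factor motif AGATAA.
Il4, chr11:53618616-53618915, minus strand: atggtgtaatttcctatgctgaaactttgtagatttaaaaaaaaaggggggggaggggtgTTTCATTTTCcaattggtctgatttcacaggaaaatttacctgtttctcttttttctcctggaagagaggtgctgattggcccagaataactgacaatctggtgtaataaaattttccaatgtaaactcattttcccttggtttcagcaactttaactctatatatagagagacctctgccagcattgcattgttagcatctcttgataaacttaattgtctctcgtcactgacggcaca
Il13, chr11:53634653-53634952, minus strand: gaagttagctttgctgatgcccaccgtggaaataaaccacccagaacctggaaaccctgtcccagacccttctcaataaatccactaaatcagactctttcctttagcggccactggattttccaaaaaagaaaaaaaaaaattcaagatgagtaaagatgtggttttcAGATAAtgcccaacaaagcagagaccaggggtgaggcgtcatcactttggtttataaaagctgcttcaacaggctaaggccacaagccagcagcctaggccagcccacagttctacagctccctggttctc
Csf1, chr3:107760420-107760719, minus strand: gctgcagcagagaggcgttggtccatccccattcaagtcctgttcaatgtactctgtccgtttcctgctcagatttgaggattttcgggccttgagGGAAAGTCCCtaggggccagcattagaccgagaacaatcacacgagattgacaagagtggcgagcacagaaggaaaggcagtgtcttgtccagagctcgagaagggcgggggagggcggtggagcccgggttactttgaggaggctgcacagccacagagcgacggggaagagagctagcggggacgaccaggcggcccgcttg
Cxcl10, chr5:92348840-92349139, minus strand: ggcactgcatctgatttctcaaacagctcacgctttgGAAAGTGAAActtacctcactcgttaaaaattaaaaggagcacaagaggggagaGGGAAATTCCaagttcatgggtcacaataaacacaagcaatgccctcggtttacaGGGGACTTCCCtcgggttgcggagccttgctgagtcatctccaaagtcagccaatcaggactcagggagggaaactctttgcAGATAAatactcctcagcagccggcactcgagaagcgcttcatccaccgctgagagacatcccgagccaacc

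The Cxcl10 promoter held an interferon response core starting at position -213 from the start site, NF-κB matches at -159 and at the overlapping positions -104 and -103, and a GATA match at -22. The Csf1 promoter held 1 NF-κB match, at -154. The Il13 promoter held 1 GATA match, at -81, and the Il4 promoter an interferon response core on the reverse strand at -190. RefSeq lists another start site for Il4, further into the gene, whose promoter window held none of these matches. Of all 32817 promoters of this length, 3.43% held the interferon response core, 8.46% the NF-κB consensus and 11.2% the GATA motif. These are matches of letters, and binding was not measured here.

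Il4 (ENSMUSG00000000869.12, chromosome 11, 53602982 to 53618669, minus strand, GRCm38) was the most abundant member. It had 612, 604 and 581 normalized counts in oil 1 to 3 and 208, 502 and 576 in tamoxifen 1 to 3. All 3 libraries labelled tamoxifen lay below all 3 labelled oil, but tamoxifen 3 was next to the lowest oil library and tamoxifen 1 lay far below the rest. The means were 599 ± 15.8 and 429 ± 194 (SD, n = 3 each). On the log2(value + 1) scale limma put the log2 fold change at -0.61 (SE, the standard error, 0.39), adjusted p 0.666. Without tamoxifen 1 it was -0.16 (SE 0.10), limma adjusted p 0.584.

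Il13 (ENSMUSG00000020383.1, chromosome 11, 53631324 to 53634702, minus strand) lies 12654 bases from Il4 and encodes a cytokine that shares the IL-4 receptor alpha chain. It had 71.9, 73.3 and 63.1 normalized counts in oil 1 to 3 and 46.0, 78.8 and 56.4 in tamoxifen 1 to 3. The groups overlapped, with tamoxifen 2 the highest and tamoxifen 1 the lowest of the 6 libraries. The log2 fold change came to -0.23 (SE 0.28), limma adjusted p 0.697, and it was -0.055 without tamoxifen 1.

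Levels of different genes were compared per length, as reads per kilobase of exon scaled to the reads of the library (RPKM). In the libraries labelled oil, Il4 had a mean of 22.6 RPKM and Il13 of 2.67. The level of every other member with reads was at most 0.156 RPKM in an oil library, below the lowest Il13 library of 2.39. Below Il13 the order was Il6, Csf1, Ccl5, Il10, Ccl9 and Cxcl10, from 0.111 to 0.00662 RPKM, and the ranges of neighbours in that order overlapped.

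Csf1 (ENSMUSG00000014599.10, chromosome 3, 107741048 to 107760469, minus strand) had 7.19, 2.89 and 7.43 normalized counts in oil 1 to 3 and 52.4, 11.1 and 17.3 in tamoxifen 1 to 3. Every library labelled tamoxifen was above every one labelled oil, and tamoxifen 1 was about 3 times the next highest. The means were 5.84 ± 2.55 and 26.9 ± 22.3 (SD, n = 3 each). The log2 fold change was 1.82 (SE 0.65), with an unadjusted p of 0.0287 and an adjusted p of 0.666 in limma. It was 1.21 without tamoxifen 1 and 1.46 without oil 2. Csf1 passed the expression filter of 10 or more normalized counts in at least 3 libraries through the tamoxifen group alone, so its passing is itself tied to that group being higher.

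Of the 10 members, 3 passed the expression filter (Il4, Il13 and Csf1), 5 had reads below it and 2 had none. In limma, 0 of the 3 were called at an adjusted p of 0.05, where 0% of the 12298 genes tested were called in either direction. At an unadjusted p under 0.05, 1 of the 3 was higher (Csf1), against 3.23% of all tested genes, and 0 were lower, against 1.24%. Csf1 was tested because of its high values in the tamoxifen group, and its unadjusted limma p was 0.0513 without tamoxifen 1 and 0.0926 without oil 2. edgeR on recovered reads called 0 of the same 3, against 0% of 12340 genes. DESeq2 called 0 of the 8 members with reads, against 0.437% of 15784 genes called higher and 0.0127% lower. Without tamoxifen 1, limma called 0 of the 3, against 0.309% of genes higher and 0.0244% lower, and DESeq2 called 0 of the 5 members given an adjusted p, against 1.28% higher and 0.41% lower. Groups did not overlap for Csf1 (higher) and Il4 (lower) among the 3, where 7.86% of tested genes were higher without overlap and 9.69% lower. An exact two-sided permutation test of 3 against 3 libraries cannot give a p below 0.1, and Csf1, Il4, Il10 and Cxcl10 were each at that limit.

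**Figure D1:**
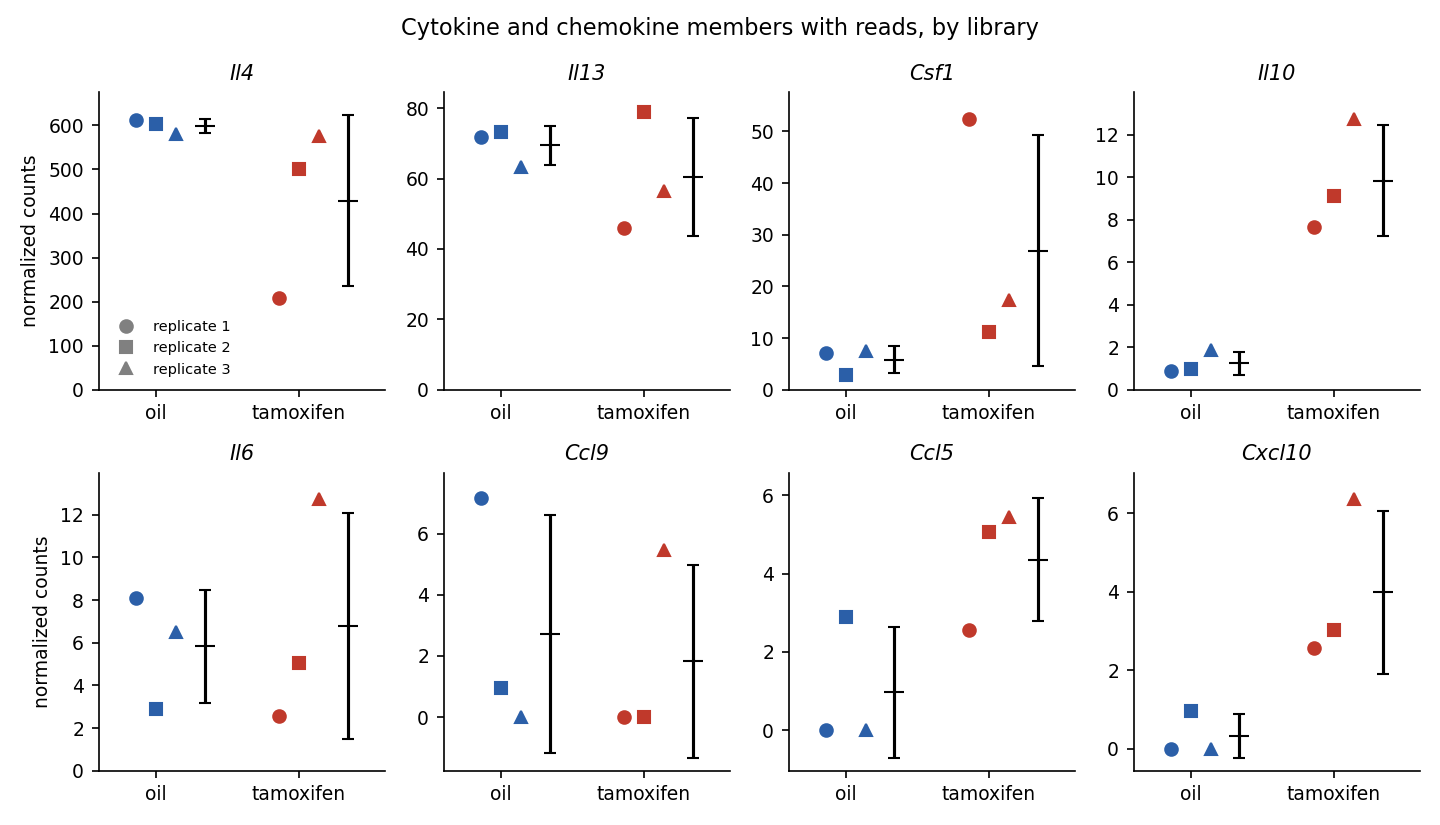
Normalized counts (linear axes) of the 8 members with reads, 1 panel per gene. Symbols are single libraries, bars give mean ± SD of 3. Il4 sat between 502 and 612 in every library except tamoxifen 1 (208), and Csf1 and Il10 were higher in each library labelled tamoxifen than in any labelled oil. For Cxcl10, tamoxifen 3 alone exceeded 3 reads.

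Il10 (ENSMUSG00000016529.5, chromosome 1, 131019845 to 131024974, plus strand) was read at low levels. It had 1, 1 and 2 reads in oil 1 to 3 and 6, 9 and 14 in tamoxifen 1 to 3, which are 0.898, 0.965 and 1.86 against 7.67, 9.09 and 12.7 normalized counts. The groups did not overlap, and all 3 oil libraries were at or below the limit of 3 reads. The ratio of reads per size factor was 8.15, with an exact 95% interval of 2.86 to 31.9 that covers counting error only. DESeq2 gave a log2 fold change of 3.00 (SE 1.04), an unadjusted p of 0.00403 and an adjusted p of 0.315. Without tamoxifen 1 the DESeq2 log2 fold change was 3.15 and the adjusted p 0.290. The study named Il10 from this comparison, so its direction is not independent evidence.

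Cxcl10 (ENSMUSG00000034855.13, chromosome 5, 92346638 to 92348889, minus strand) had 0, 1 and 0 reads in oil 1 to 3 and 2, 3 and 7 in tamoxifen 1 to 3. Each library labelled tamoxifen had more reads than any labelled oil, but tamoxifen 3 alone exceeded 3 reads, and the order among the rest is not resolved at this depth. The ratio of reads per size factor was 13.5, with an exact 95% interval of 1.99 to 576 for counting error, and DESeq2 gave an adjusted p of 0.840. The gene overlaps Art3 on the opposite strand in the annotation, and the strand setting of the counting is not given in the sources used here, so reads of the 2 genes may not be separable.

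Ccl5 (ENSMUSG00000035042.2, chromosome 11, 83525778 to 83530518) had 0, 3 and 0 reads in oil 1 to 3 and 2, 5 and 6 in tamoxifen 1 to 3. The groups overlapped, and tamoxifen 2 and 3 alone exceeded 3 reads. The ratio of reads per size factor was 4.87 (exact 95% interval 1.34 to 26.6, counting error only). Ccl5 is a product of T and NK cells, among others. Of the 7 NK cell markers, 5 (Ncr1, Klrb1c, Prf1, Gzma and Eomes) had 0 reads in all libraries and Klrk1 had at most 1. Nkg7, a granule protein gene of cytotoxic cells, was at 58.9 to 159 normalized counts in the oil group and 193 to 661 in the tamoxifen group. DESeq2 called it higher (log2 fold change 2.28, adjusted p 0.00765), where 0.437% of its genes were called higher. Limma gave an adjusted p of 0.666 and DESeq2 without tamoxifen 1 gave 2.08 with an adjusted p of 0.228. Of the 8 T cell markers, 4 (Cd3e, Cd8a, Cd8b1 and Cd5) had 0 reads, 3 had reads below the filter, and Lck was at 31.8 to 97.1 with overlapping groups. The part of such cells in the Ccl5 reads was not tested.

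Il6 (ENSMUSG00000025746.11, chromosome 5, 30013114 to 30019981) and Ccl9 (ENSMUSG00000019122.8, chromosome 11, 83572919 to 83578636) showed no order between the groups. Il6 had 9, 3 and 7 reads in oil 1 to 3 and 2, 5 and 14 in tamoxifen 1 to 3, so the highest and the lowest library were both labelled tamoxifen. Ccl9 had 8, 1 and 0 reads in oil 1 to 3 and 0, 0 and 6 in tamoxifen 1 to 3. The ratios of reads per size factor were 1.24 (0.636 to 2.44) for Il6 and 0.749 (0.219 to 2.36) for Ccl9, and both exact 95% intervals span 1.

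Of the 5 members with reads below the filter, the groups did not overlap for Il10 and, at counts mostly within the limit of 3 reads, Cxcl10, both higher. Among the 5317 genes below the filter with a mean value of 1 to 10, 8.76% were higher without overlap and 3.72% lower. This range was chosen after the members' values were seen.

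Ccl3 (ENSMUSG00000000982.5, chromosome 11, 83647844 to 83649355) and Ccl4 (ENSMUSG00000018930.3, chromosome 11, 83662584 to 83664683) had 0 reads in each of the 6 libraries. A count of 0 allows up to 3 reads per library, which corresponds to 2.69 to 3.83 normalized counts. Both genes lie with Ccl5 and Ccl9 in a stretch of 138906 bases on chromosome 11 and none of these 4 chemokine genes exceeded 8 reads in any library.

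Values of the tamoxifen 1 library moved with GC content across genes, and the 3 tested members were set beside genes of like GC content. For Il4 (42.3% GC in its longest transcript) the log2 difference of tamoxifen 1 from the mean of the other 5 libraries was -1.46, while 812 protein-coding genes within 1 percentage point of GC had a median of -1.01 and quartiles of -1.53 and -0.46. For Il13 (53.4% GC) the difference was -0.56, below the quartiles of 0.030 and 0.80 of 1183 such genes. For Csf1 (54.4% GC) it was 2.57, above the quartiles of 0.11 and 0.85 of 1130 such genes. Il4 in tamoxifen 1 thus lay within the quartiles of genes of its GC content, and Il13 and Csf1 lay outside them on opposite sides. The part of GC content in these values was not tested.

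**Figure D2:**
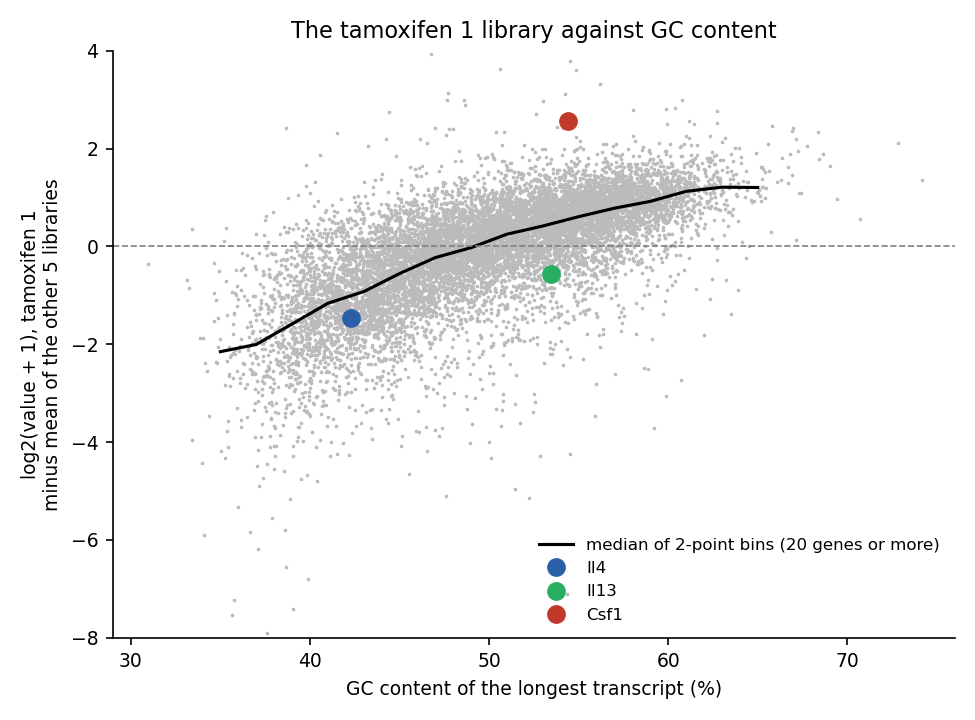
Difference in log2(value + 1) between the tamoxifen 1 library and the mean of the other 5, against the GC content of the longest transcript (%), for tested protein-coding genes (grey points) with their median in 2-point bins (line). Il4 lay at -1.46, where genes within 1 percentage point of its GC content had a median of -1.01 and quartiles of -1.53 and -0.46. Csf1 lay at 2.57 above the line and Il13 at -0.56 below it.

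The balance of mast cell and basophil markers, of cell types known to make IL-4 and IL-13, differed with and without tamoxifen 1. Of the 10, all past the filter, 6 had estimates above 0 and 4 below over all 6 libraries, with a median of 0.27, and 8 and 2 without tamoxifen 1, with a median of 0.63. In limma 3 had an unadjusted p under 0.05, all higher (3.23% of all tested genes), and 0 were called. Without tamoxifen 1, 6 were higher and 1 lower at that p, where 743 of all 12298 tested genes were higher and 745 lower. In that fit limma called Cpa3 and Tpsb2 higher (0.309% of all tested genes). Mcpt8 and Tpsb2 were higher and Ms4a2, a chain of the IgE receptor, was lower in every library labelled tamoxifen, against 7.86% and 9.69% of all tested genes. DESeq2 called the protease gene Tpsb2 higher (log2 fold change 3.25, adjusted p 2.50e-05), where 0.437% of its genes were called higher, and without tamoxifen 1 it called Cpa3, Mcpt8 and Tpsb2 higher, where 1.28% were. The sum over the 10 markers was 69404 to 80105 normalized counts in oil 1 to 3, 35152 in tamoxifen 1, and 77655 and 90794 in tamoxifen 2 and 3. Such a sum weighs abundant genes most, among them Il1rl1 (limma log2 fold change -0.44, and -0.085 without tamoxifen 1). Il4 was also lowest in tamoxifen 1, and the part of mast cells and basophils in its values was not tested. The macrophage list, which shares Csf1r with the receptor list below, summed to 120 to 272 in oil 1 to 3 and 304 to 398 in tamoxifen 1 to 3, without overlap. Of its 12 genes, 8 passed the filter and all 8 had estimates above 0, with a median log2 fold change of 1.27 against -0.017 over all tested genes. Limma called 0 of the 8, 4 were higher at an unadjusted p under 0.05 (3.23% of all tested genes) and 4 were higher without overlap (7.86%). Of the 4 below the filter, DESeq2 put Adgre1 at 1.06, Marco at 1.08, Siglec1 at 0.50 and Fcgr1 at -0.95. The DESeq2 adjusted p was 0.863 for Siglec1 and 0.840 for Adgre1 and Fcgr1, and Marco was given none. The sort took lineage-negative cells, a gate meant to remove mature cells such as macrophages. The part of macrophages in the values of Csf1 and Il10 was not tested. Neutrophil markers summed to 15.3 to 28.0 and 36.4 to 53.5 without overlap, with Ly6g at 0, but did not all go the same way. Mmp8, the 1 marker past the filter, was at -1.47 in limma (adjusted p 0.666) and -0.89 in DESeq2. In DESeq2 S100a8 was at 3.45 (adjusted p 0.185), S100a9 at 1.93, Camp at 2.25 and Ltf at 2.87, and 0 were called. B cell markers summed to 4.64 to 9.65 and 6.06 to 24.3, with Ms4a1 and Cd22 at 0. The NK cell sum, of which Nkg7 made up nearly all, was 59.8 to 159 and 193 to 662 without overlap, that of T cell markers 37.6 to 65.9 and 32.7 to 98.4, and that of dendritic cell markers 85.3 to 130 and 84.9 to 175.

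**Figure D3:**
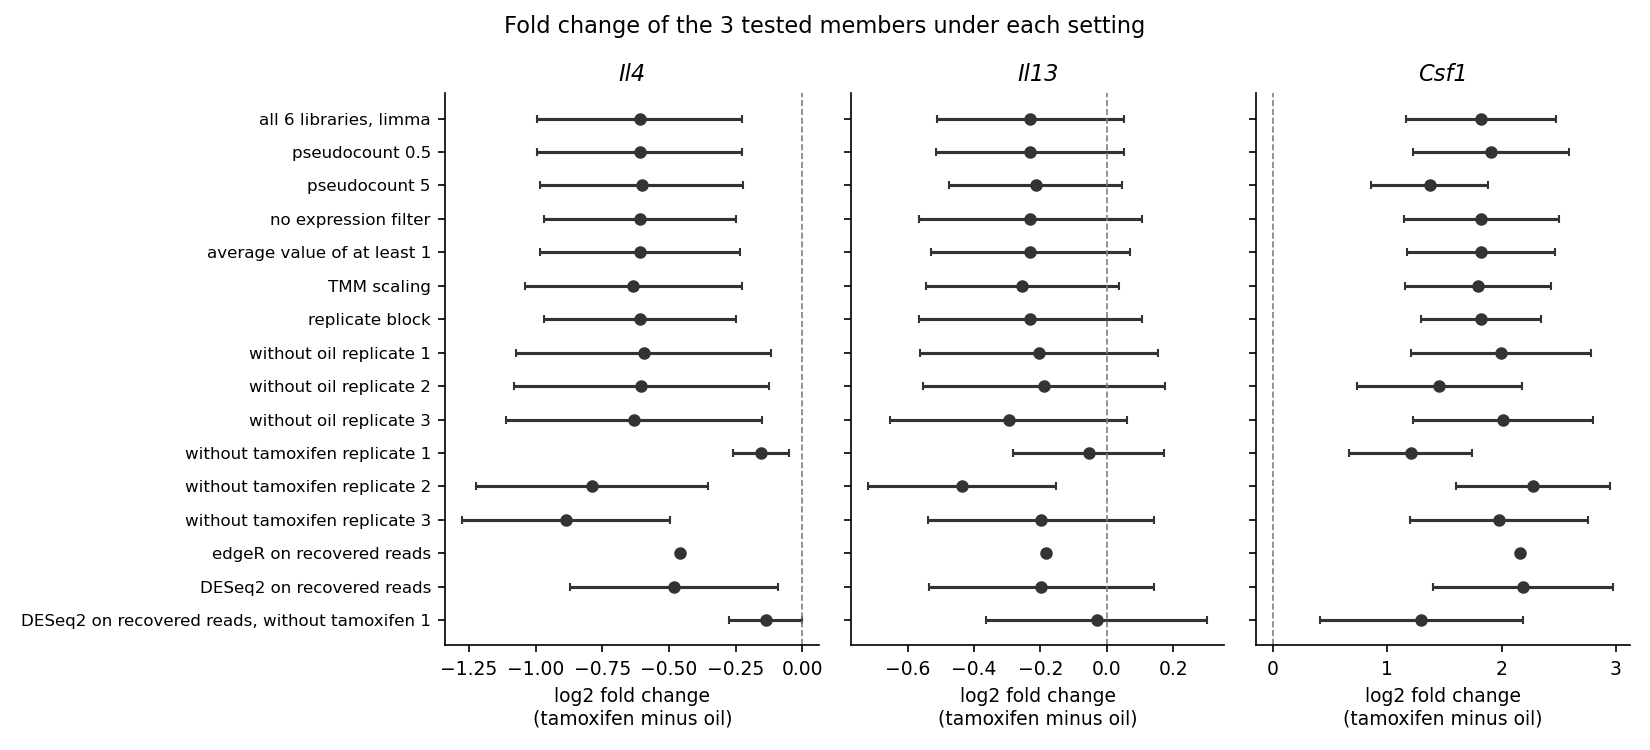
Log2 fold change (tamoxifen minus oil) of Il4, Il13 and Csf1 under each setting, with bars of 1 standard error where the tool gives one. Il4 moved from -0.61 to -0.16 and Csf1 from 1.82 to 1.21 when tamoxifen 1 was left out, and neither changed direction.

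The genes whose pattern over the 6 libraries was most like that of a tested member, by Pearson's r of log2(value + 1), were Ttc33 (r = 0.999) and Ino80c (0.999) for Il4, Rps12-ps9 (0.999) and Dynlt1f (0.993) for Il13, and Rp9 (0.999) and F2rl3 (0.998) for Csf1. Between members, r was 0.76 for Il4 with Il13, -0.85 for Il4 with Csf1 and -0.83 for Il13 with Csf1. These describe 6 points that share libraries, among them tamoxifen 1.

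The receptor list held 15 genes, of which 8 passed the filter, 5 had reads below it and 2 (Il13ra2 and Ackr2) had none. Il4ra, the chain that binds IL-4 and takes part in the IL-13 receptor, had 795, 794 and 712 normalized counts in oil 1 to 3 and 1899, 956 and 1159 in tamoxifen 1 to 3. Il10ra, the ligand-binding chain for IL-10, had 365, 227 and 154 against 615, 366 and 857. Csf1r, the receptor of CSF1, had 22.5, 10.6 and 14.9 against 33.2, 44.5 and 31.8. For these 3 receptors, the ones with the smallest p of the list, every library labelled tamoxifen was above every one labelled oil, although oil 1 and tamoxifen 2 nearly met for Il10ra. Of the 8 receptors tested, 3 were higher without overlap and 1 (Ackr1) lower, against 7.86% and 9.69% of all tested genes.

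The log2 fold changes were 0.74 for Il4ra (standard error 0.27), 1.30 for Il10ra (0.42) and 1.19 for Csf1r (0.37), each with limma adjusted p 0.666. Limma called 0 of the 8 (0% of all tested genes), 3 had an unadjusted p under 0.05, all higher (3.23% of all tested genes), and the median log2 fold change was 0.50. Without tamoxifen 1 the median was 0.84 and 4 were higher at such a p, where 743 of all 12298 tested genes were. Without tamoxifen 1, DESeq2 called 1 receptor, Il4ra, at 0.48 on the log2 scale, adjusted p 0.0254, where 1.28% of 13642 genes were called higher, and limma called 0. The partner chains Il2rg (954 ± 42.2 and 811 ± 250 normalized counts, SD, n = 3) and Il10rb (729.9 ± 61.2 and 628 ± 141) had overlapping groups. Il13ra1, the partner of Il4ra for IL-13, had at most 1 read in any library, and Cxcr3, the receptor of CXCL10, at most 3. Ccr1, a receptor of CCL3 and CCL5, and Ccr3, which also binds CCL5, ranged from 1.28 to 25.3 normalized counts with overlapping groups. Without tamoxifen 1 the log2 fold change went from 0.25 to 1.23 for Ccr1 (limma adjusted p 0.432). For Ccr3 it went from 0.78 to 1.74 (limma adjusted p 0.371). Ackr1, a scavenger of chemokines, had 458 ± 33.5 in the oil group and 379.6 ± 33.1 in the tamoxifen group, without overlap and with limma adjusted p 0.666.

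Of 31 further chemokines, 4 passed the filter, 11 had reads below it and 16 had none. Ccl17, an attractant of T helper 2 cells, had 227, 209 and 201 normalized counts in oil 1 to 3 and 443, 290 and 468 in tamoxifen 1 to 3. All 3 libraries labelled tamoxifen were above every one labelled oil, as for 7.86% of all tested genes. Its log2 fold change was 0.88 (SE 0.24), with an unadjusted p of 0.00798 and an adjusted p of 0.666 in limma. Without tamoxifen 1, DESeq2 called it at 0.85 with an adjusted p of 0.0115, where 1.28% of its genes were called higher. Limma without tamoxifen 1 gave 0.79 with an adjusted p of 0.164. Cxcl12, the ligand of CXCR4, and the thymic chemokine Ccl25 had overlapping groups, with log2 fold changes of 0.90 and -0.37, and Ccl25 was at 0.32 without tamoxifen 1. Limma called 0 of the 4 (0% of all tested genes), 1 had an unadjusted p under 0.05, higher (3.23% of all tested genes), and the median was 0.31. Without tamoxifen 1 the median was 0.73 and 2 were higher at an unadjusted p under 0.05, where 743 of all 12298 tested genes were. The 2 were Ccl17 and Ccl6. Ccl6, a chemokine of myeloid cells, was listed at 0 in tamoxifen 1 and went from -0.26 to 1.29 (limma adjusted p 0.376).

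Of 40 further cytokines, 7 passed the filter, 18 had reads below it and 15 had none, among them the interferon genes Ifnb1 and Ifng. Lif, a cytokine of the IL-6 family, had 5.39, 1.93 and 2.79 normalized counts in oil 1 to 3 and 65.2, 16.2 and 33.6 in tamoxifen 1 to 3. Every library labelled tamoxifen was above every one labelled oil (7.86% of all tested genes), and, as with Csf1, Lif passed the filter through that group alone. The log2 fold change came to 3.04 (SE 0.60), limma adjusted p 0.618. DESeq2 called Lif over all 6 libraries at 3.49 with an adjusted p of 0.00303, where 0.437% of its genes were called higher. Without tamoxifen 1 it called Lif at 2.90 with an adjusted p of 0.0496, where 1.28% were. limma without tamoxifen 1 gave 2.56 and an adjusted p of 0.133.

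Il16, a chemoattractant of CD4+ cells, had 82.6, 90.7 and 67.8 normalized counts in oil 1 to 3 and 151, 130 and 239 in tamoxifen 1 to 3, again without overlap (7.86% of all tested genes). Its log2 fold change was 1.06 with limma adjusted p 0.666. DESeq2 without tamoxifen 1 called it at 1.22 with an adjusted p of 0.00858, where 1.28% of its genes were called higher. Osm, a further cytokine of the IL-6 family, had 607, 537 and 612 against 1040.3, 661 and 693. Its log2 fold change of 0.42 fell to 0.21 without tamoxifen 1, and limma, edgeR and DESeq2 did not call it. Limma called 0 of the 7 tested (0% of all tested genes), and the median was 0.13, or 0.034 without tamoxifen 1. At an unadjusted p under 0.05, Il16 and Lif were higher (3.23% of all tested genes), and Lif was tested because its values were high in the tamoxifen group.

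**Figure D4:**
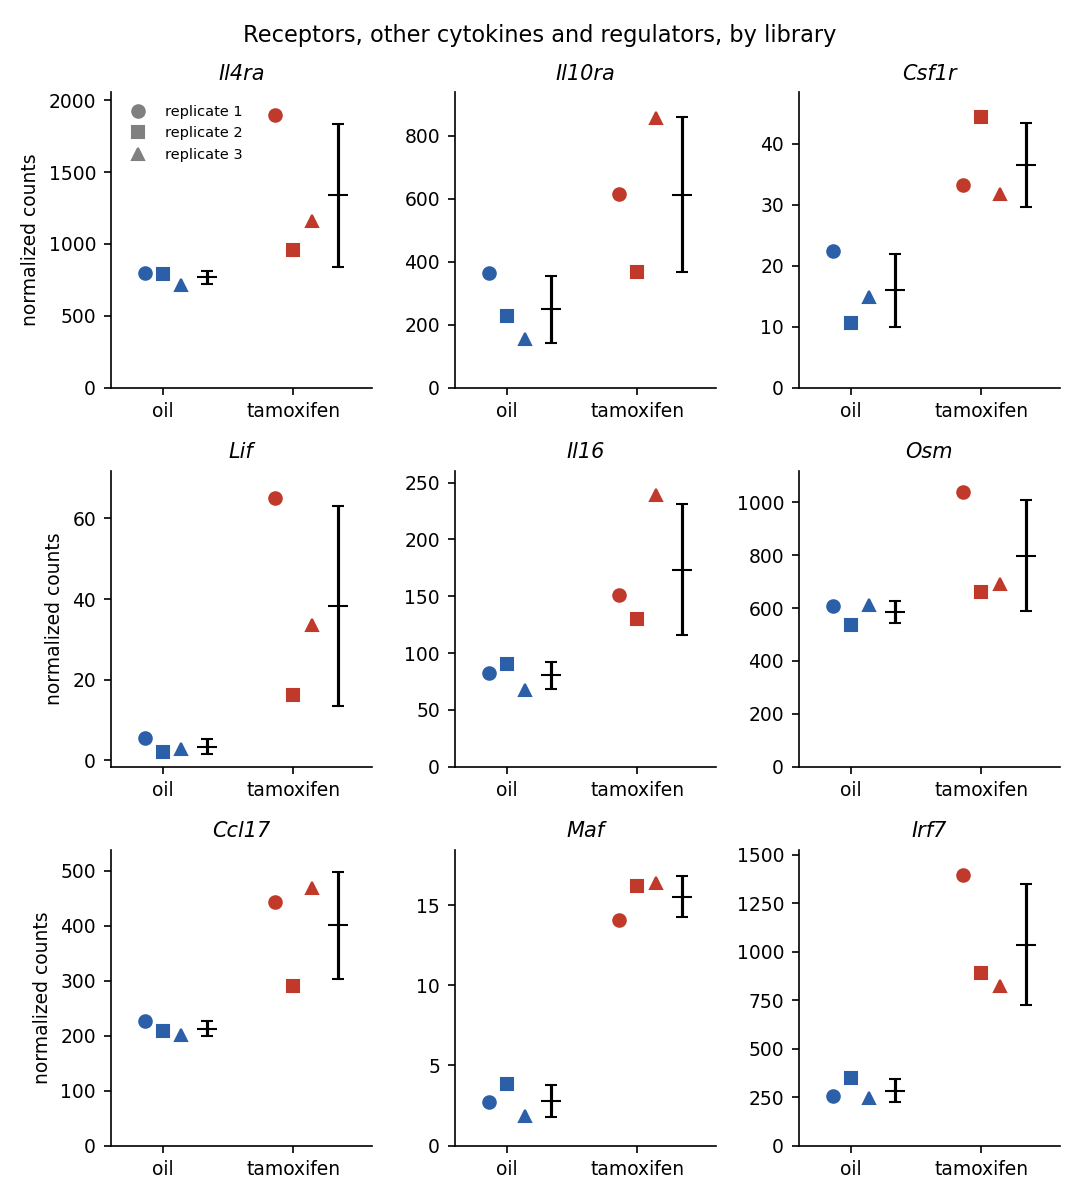
Normalized counts (linear axes) of 3 receptors, 4 further cytokines or chemokines and 2 transcription factors, 1 panel per gene. Symbols are single libraries, bars give mean ± SD of 3. The panels were chosen among the genes with the smallest p of each list, so that the 3 libraries labelled tamoxifen lie above the 3 labelled oil in each reflects that choice (7.86% of all tested genes did so); Cxcl12 and Ccl25, whose groups overlapped, and Nfil3 are not drawn.

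Of 31 regulators known to act on cytokine genes, 27 passed the filter. Limma called 0 over all 6 libraries (0% of all tested genes). An unadjusted p under 0.05, in the higher direction, was found for Irf7, Cebpb, Maf and Nfil3 (3.23% of all tested genes), and the direction of Maf and Nfil3 was tied to the filter, which they passed through the tamoxifen group alone. The median log2 fold change was 0.33, or 0.16 without tamoxifen 1. Irf7, an interferon-induced activator of interferon genes, had 255, 350 and 245 normalized counts in oil 1 to 3 and 1394, 890.1 and 824 in tamoxifen 1 to 3. Its log2 fold change came to 1.84 (SE 0.26), limma adjusted p 0.426. DESeq2 called Irf7 higher (1.87, adjusted p 3.90e-06), where 0.437% of its genes were called higher. Limma without tamoxifen 1 also called Irf7 (1.61, adjusted p 0.00277), where 0.309% of tested genes were called higher. Maf, a transcription factor known to activate Il4 and Il10, had 2.69, 3.86 and 1.86 against 14.1, 16.2 and 16.4 normalized counts without overlap (7.86% of all tested genes). Its log2 fold change was 2.15 with limma adjusted p 0.580. Nfil3, known to act on Il10 and Il13 among others, had 6.29, 2.89 and 2.79 against 10.2, 10.1 and 13.6, a log2 fold change of 1.36 with limma adjusted p 0.666. Gata2, a regulator of mast cell and progenitor genes including Il4 and Il13, was at 8872 to 13302 normalized counts with overlapping groups, a log2 fold change of 0.12 and limma adjusted p 0.754, and was named after its values were seen. Gata3, of the same list and also named after its values were seen, had a log2 fold change of -0.34 with limma adjusted p 0.666. Without tamoxifen 1 the log2 fold change of Gata3 was -0.39, with a limma adjusted p of 0.305.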

How the data were processed

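The members and gene lists were chosen with earlier results of these data known. Per the labels and the study's methods, the authors aligned reads with STAR to mm10 and processed them with DESeq2; annotation, strand setting and versions are not given in the sources used here. The deposited values are a normalized signal: the reads of each gene scaled by the size factor of its library. 100% of values above 0 were whole multiples of 1 step per library (within 0.01 reads), and dividing by it recovered reads. Rows without a name (1832 of 55450, 0.0400% to 0.0614% of reads) were left out. The main test was limma (version 3.58.1, R 4.3.3; lmFit, eBayes with trend) on log2(value + 1) over 12298 genes with 10 or more in at least 3 libraries, two-sided, Benjamini-Hochberg adjusted over all of them, threshold 0.05. It was chosen over a count test because the values are normalized. Fold changes understate the change of low genes. edgeR (version 4.0.16, TMM) and DESeq2 (version 1.42.0) were run on recovered reads. On simulated data (12298 genes, 200 changed by 2 on the log2 scale, dispersion 0.05) limma recovered 97.5% and called 8 unchanged genes. No simulated library stood apart as tamoxifen 1 did, so this share does not give the power of the test on these libraries. Coordinates, exon lengths and GC content came from GENCODE vM21 (GRCm38). Named genes were the members, Usp18, the 3 genes of each list with the smallest p, and the 2 genes most like each tested member; others were named after their values were seen. Intervals were taken from reads pooled over the 3 libraries of each group, so they cover counting error only and leave out variation between mice. The reads carry no molecular identifiers, so counting error itself may be understated.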

Additional observations from a re-analysis of the deposited data

How the results depend on the processing

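Il4 and Il13 stayed below 0 and Csf1 above 0 under all alternatives run, and no alternative called a member. With each library left out in turn, limma called 0 to 38 genes higher and 0 to 3 lower, with calls only without tamoxifen 1. The log2 fold changes ranged from -0.89 to -0.16 for Il4, from -0.44 to -0.055 for Il13 and from 1.21 to 2.28 for Csf1. DESeq2 called 69 genes higher and 2 lower, and without tamoxifen 1, an alternative chosen after seeing the data, 174 higher and 56 lower. Over all 6 libraries limma called 0 genes, and at unadjusted p below 0.05 there were 397 in the higher and 153 in the lower direction. Without the expression filter, limma tested 8 members, and 4 were higher at an unadjusted p under 0.05, against 796 of 24247 genes. These were Il10, Csf1, Ccl5 and Cxcl10. With a filter on a mean value of at least 1, the same 4 of 8 were higher, against 681 of 17668 genes. DESeq2 had 3 of 8 higher at that p (Il10, Csf1 and Cxcl10), against 728 of 15784 genes. In each of these settings 0 members were lower. The adjusted p of the 3 tested members ranged from 0.366 to 0.999 over all settings. DESeq2 tested more genes and the cause of the difference in counts was not tested. The same-numbered libraries did not deviate together (correlations -0.024, 0.061 and -0.15); with the replicate block limma called 0 genes, and the fold changes were -0.61, -0.23 and 1.82. The median of all genes moved to 0.11 in DESeq2 and stayed within 0.1 of 0 otherwise. For the members below the filter, the difference of mean log2 values depends on the pseudocount: with 5 in place of 1 it was 1.24 in place of 2.27 for Il10, 0.67 in place of 1.72 for Ccl5 and 0.74 in place of 1.92 for Cxcl10, which was at 2.55 with 0.5. Depth limits the 7 members below the filter, where 3 reads per library is the floor.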
